A study of Mus musculus with 6 samples.

Results

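The aquaporins Aqp1, Aqp4, Aqp7 and Aqp8 were followed in heart RNA from 3 groups of male mice aged 2 months. They are 4 of 18193 genes with a named probe set on the array and hold 7 of its 45037 probe sets other than controls. All probe sets whose single gene symbol in the array annotation was one of the 4 names were taken, and the probe set with the highest mean over the 6 arrays was the main one for its gene. That mean uses no group label, but the 4 genes were picked from their family with earlier results of these arrays known. Their adjusted p-values therefore describe these arrays and are not independent evidence. The RKIP-transgenic mice carried RKIP, a protein that binds and restrains RAF kinase and the G-protein-coupled receptor kinases (GRKs), behind the alpha-MHC promoter, which is active in heart muscle cells. In the GRK-Inh-transgenic mice the myocardium made a GRK-inhibiting peptide, from a promoter that the labels do not name. The B6 control mice are labelled wild type. All groups share the B6 strain background, and each group had 2 arrays. The labels describe 1 mouse line for each transgene, so the effect of a transgene and that of its line cannot be told apart.

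Aquaporins are membrane proteins that form a narrow pore in each monomer and assemble as tetramers. Aqp1 and Aqp4 pass mainly water. Aqp1 is the channel of capillary endothelium and of red blood cells, and Aqp4 is the main channel of brain astrocytes and is also held in muscle cell membranes by the syntrophins of the dystrophin complex. Aqp8 passes water, ammonia and hydrogen peroxide. Aqp7 is an aquaglyceroporin, a pore that also passes glycerol, and is best known for glycerol release from fat cells.

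The authors' scaling gave every array the same trimmed mean signal, and median signals per array lay between 50.3 and 55.0. Signals were compared as log2 of the signal plus 50, and a gene was tested where its mean reached the median over all probe sets, a signal of 50.2, which left 11254 genes. Differences are log2 fold changes with the SE of a limma fit over all tested genes, and "passed" means a Benjamini-Hochberg adjusted p under 0.05. Nothing in the labels ties the arrays to separate animals, so the p-values rest on a spread between samples that may be technical. Of all genes tested, 10.8% passed between RKIP-transgenic and control hearts, 13.1% between GRK-Inh and control hearts and 8.84% between the transgenic groups. In the same order, the medians over all genes tested were -0.017, -0.031 and 0.021 on the log2 scale. The arrays of the groups did not overlap for 53.4%, 56.9% and 52.9% of these genes. Counts and medians of gene lists below stand beside these values. All 8 heart muscle cell markers were past the filter. Pebp1, the mouse gene for RKIP, gave 9102 and 9140 on the RKIP-transgenic arrays and 9292 and 8766 on the control arrays (log2 fold change 0.015 ± 0.041, adjusted p = 0.866). These probes read the 3' end of the mouse transcript and could miss a transgene that lacks it or comes from another species, and the group is called RKIP-labelled below. Actin control probes at the 3' end gave 2.92 to 3.03 times the signal of those at the 5' end on the transgenic arrays, and 3.25 and 3.11 times on the control arrays; the part of this RNA quality measure in the results was not tested.

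Upstream sequences of Aqp1 and Aqp8 are shown because these are the members that passed between the transgenic groups, in opposite directions. That of Aqp4 is not printed here. Each is the 250 bases before the gene's annotated start, from RefSeq on build GRCm38.p6, plus strand, 5′ to 3′. Capitals mark matches among 5 common promoter motifs searched on both strands, a set chosen with these sequences in view. They were GGGCGG (the GC box), TATAAA (the TATA box), CCAAT (the CCAAT box), CACGTG (the E-box, the same on both strands) and AGGTCA (a nuclear receptor motif), and no 2 of them overlap here.
Aqp1, chr6:55336049-55336298: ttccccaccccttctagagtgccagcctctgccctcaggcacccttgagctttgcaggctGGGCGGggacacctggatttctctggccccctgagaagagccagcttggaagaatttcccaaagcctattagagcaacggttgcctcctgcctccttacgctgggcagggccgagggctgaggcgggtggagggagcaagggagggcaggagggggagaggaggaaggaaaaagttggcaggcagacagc
Aqp8, chr7:123462044-123462293: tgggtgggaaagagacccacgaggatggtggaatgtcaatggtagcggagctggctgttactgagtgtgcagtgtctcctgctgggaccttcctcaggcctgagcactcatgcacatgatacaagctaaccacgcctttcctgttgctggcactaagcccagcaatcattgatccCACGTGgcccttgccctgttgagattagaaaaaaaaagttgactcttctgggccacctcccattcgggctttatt
The Aqp1 stretch held the GC box once, its first letter at -190 from the start, and 32.7% of 32851 such stretches in the table held it. The Aqp8 stretch held the E-box once, at -75, and 6.02% of the stretches held that. The letters of the TATA box, the CCAAT box and the nuclear receptor motif were in neither stretch, and 12.4%, 33.8% and 14.0% of stretches held them. A match describes the letters only, and no binding was measured here.

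Aqp1, the endothelial water channel, was lower in the RKIP-labelled hearts than in either other group. Its single probe set gave signals of 3285 and 3090 on the RKIP-labelled arrays, 4399 and 4319 on the GRK-Inh arrays, and 4366 and 4507 on the control arrays. The RKIP-labelled arrays lay below all others, while the GRK-Inh and control arrays overlapped. Against control the RKIP-labelled mean of 3188 ± 138 (SD, n = 2) was below the control mean of 4436 ± 100 (log2 fold change -0.47 ± 0.049, adjusted p = 0.000168 by limma). It was also below the GRK-Inh mean (-0.45 ± 0.049, adjusted p = 0.000288). In the GRK-Inh hearts the mean was 4359 ± 56.0, and the difference from control was -0.025 on the log2 scale, with a 95% interval from -0.13 to 0.083 (adjusted p = 0.790), a sign that turned, to 0.020, with the arrays shifted to one median. Both passing differences stayed past the threshold in each of the 17 alternatives.

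Markers of the cells and membrane domains that carry Aqp1 were read beside it. Of 13 endothelial markers, 0 were higher and 3 lower in RKIP-labelled than in control hearts (median log2 fold change -0.15, against -0.017 over all genes tested). In the GRK-Inh hearts 1 was higher and 3 were lower (median -0.035, against -0.031). Between the transgenic groups, 0 were higher and 4 lower in the RKIP-labelled hearts (median -0.092, against 0.021). The summed signal of these markers was 10987 to 11407 on the RKIP-labelled arrays, 11928 to 12014 on the GRK-Inh arrays and 13906 to 14060 on the control arrays. Without Aplnr, a gene left out after its values were seen, the sum was 9467 to 9570, 10228 to 10481 and 10391 to 10684 in the same order of groups, and the GRK-Inh and control arrays overlapped. Aplnr, the apelin receptor gene, fell in both, to 1837 and 1520 and to 1533 and 1700 from 3669 and 3221 (-1.02 ± 0.093 and -1.07 ± 0.093). Kdr, the main VEGF receptor gene, gave 1256 and 1371 in RKIP-labelled, 1909 and 1820 in GRK-Inh and 1662 and 1519 in control hearts. The part of endothelial content in the Aqp1 result was not tested, and in whole hearts fewer cells of a type and less RNA per cell cannot be told apart. Caveolae, membrane pits in which Aqp1 is found, had 1 of 8 genes higher and 5 lower in RKIP-labelled hearts (median -0.31) and 1 higher and 4 lower in GRK-Inh hearts (median -0.24). Between the transgenic groups limma called 0 of the 8, with 1 at an unadjusted p under 0.05 (median -0.063). The shares called over all genes tested were 10.8%, 13.1% and 8.84% in the same order of comparisons. The caveolae gene that rose, Cavin4, encodes the muscle cavin (0.69 ± 0.066 and 0.67 ± 0.066). Of 5 red blood cell genes with a probe set, 0 were past the filter, and their summed signal was 33.6 to 106 on all arrays. The list fixed 9 genes, and its beta-globin genes, Hbb-bs and Hbb-b1, had no single-symbol probe set. The sum leaves them out, so it does not measure red blood cell RNA as a whole.

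Aqp4, the astrocyte and muscle water channel, was lower in both transgenic groups. Its main probe set gave 175.9 and 175.8 on the RKIP-labelled arrays, 154.5 and 143.4 on the GRK-Inh arrays, and 505 and 503 on the control arrays. Both control arrays stood above all 4 transgenic arrays. The control mean of 504 ± 1.5 (SD, n = 2) was 2.87 times the RKIP-labelled mean of 175.9 ± 0.106 (log2 fold change -1.29 ± 0.11, adjusted p = 4.8e-05 by limma). It was 3.39 times the GRK-Inh mean of 148.9 ± 7.85 (-1.48 ± 0.11, adjusted p = 1.3e-05). These comparisons share the control arrays. The 2 transgenic groups did not overlap, yet their difference of 0.18 ± 0.11 did not pass (95% interval -0.065 to 0.43, adjusted p = 0.372).

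The other Aqp4 probe sets had the same order of control above both transgenic groups. The probe set of second highest mean gave 57.1 and 44.3 in RKIP-labelled, 52.1 and 46.2 in GRK-Inh, and 113.8 and 117.0 in control hearts. Tested among all probe sets one by one, it was lower in the RKIP-labelled hearts (-0.72 ± 0.17, adjusted p = 0.0262) and in the GRK-Inh hearts (-0.74 ± 0.17, adjusted p = 0.0179). Its mean reached the filter mainly through the control arrays, so this test is not separate support for the Aqp4 difference. The dimmest probe set was below the filter and untested, with 33.3 and 26.7, 33.1 and 31.3, and 46.4 and 68.5 in the same order of groups. The transgenic signals of the dimmer probe sets lay near or below 50.2, so no ratio of signals is given for them.

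**Figure D1:**
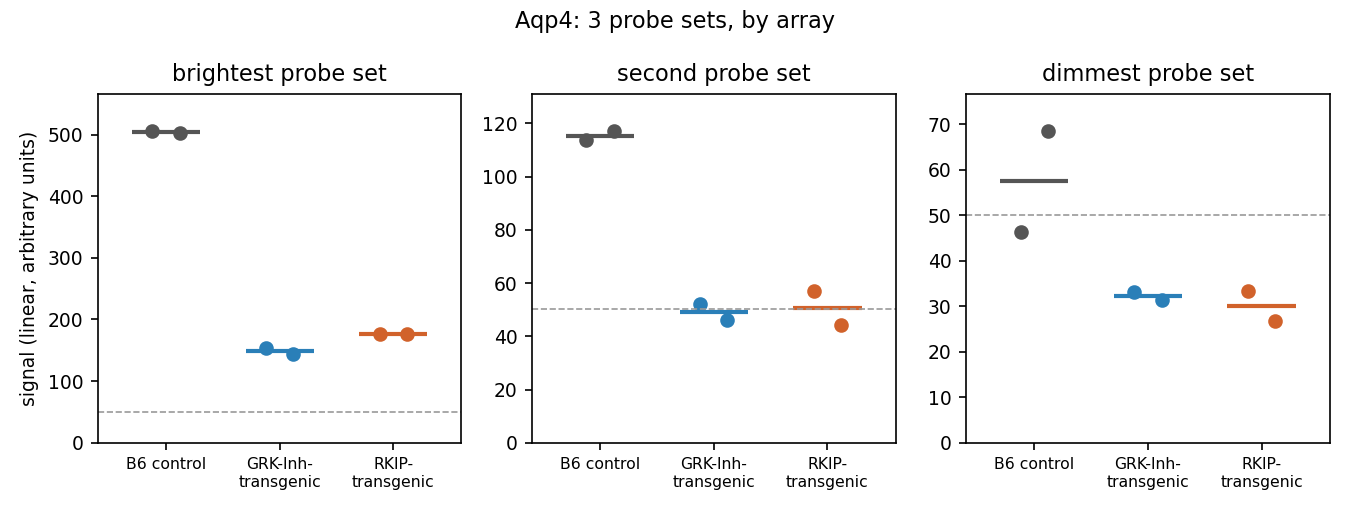
Signal of the 3 Aqp4 probe sets on each array (points, linear scale from 0) with the mean of the 2 arrays of a group (bars); the dashed line is the filter signal of 50.2. Both control arrays lie above all 4 transgenic arrays in each panel, from 505 and 503 for the brightest probe set to 46.4 and 68.5 for the dimmest.

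Of the genes of the dystrophin complex, which holds Aqp4 at muscle membranes, 1 of 12 tested was higher and 3 were lower in RKIP-labelled hearts (median log2 fold change 0.034). In GRK-Inh hearts 2 were higher and 3 lower (median 0.0031), and between the transgenic groups 1 was higher and 0 lower in the RKIP-labelled hearts (median -0.0079). Of all genes tested, 10.8%, 13.1% and 8.84% were called in these comparisons. Sgca, the alpha-sarcoglycan gene, was the member that rose in RKIP-labelled hearts, from 1393 and 1421 to 2218 and 2240 (0.65 ± 0.055, adjusted p = 4.2e-05). It was also higher in GRK-Inh than in control hearts, at 1716 and 1705 (0.27 ± 0.055, adjusted p = 0.00779 by limma), a call lost in 2 of 17 alternatives. Sntb1, a beta-syntrophin gene, gave 59.5 and 122 in RKIP-labelled, 46.9 and 71.1 in GRK-Inh and 184 and 202 in control hearts. It was lower in GRK-Inh than in control hearts (-1.16 ± 0.22, adjusted p = 0.00509 by limma), a call that held in 15 of 16 alternatives. Its call in the RKIP-labelled hearts (-0.82 ± 0.22, adjusted p = 0.0368) was lost in 5 alternatives, among them without RKIP-transgenic array 1 and without either control array, where it was as high as 0.220.

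Markers of fast skeletal muscle and of nerve and glia, other cells known to carry Aqp4, were dim. Of 9 fast skeletal muscle genes 2 were past the filter, with Myh1, Myh2, Myh4 and Actn3 below it, and limma called 0 in any comparison (at an unadjusted p under 0.05, 0, 1 and 1 in the comparisons of RKIP-labelled with control, GRK-Inh with control and RKIP-labelled with GRK-Inh hearts). For the fast muscle genes the summed signal was 270 to 426 in RKIP-labelled, 197 to 227 in GRK-Inh and 313 to 321 in control hearts. Of 5 nerve and glia genes with a probe set 3 were past the filter, Gfap was not, and limma called 0, also at an unadjusted p under 0.05. Of the fibroblast markers, 0 of 9 rose and 7 fell in RKIP-labelled hearts (median -0.48), and 0 rose and 8 fell in GRK-Inh hearts (median -0.57). Their summed signal was 37836 to 38032, 35232 to 35741 and 50571 to 53238 in RKIP-labelled, GRK-Inh and control hearts. Col1a2, a fibrillar collagen gene, fell in both groups (-0.79 ± 0.041 and -0.85 ± 0.041). Smooth muscle and pericyte markers had 0 of 8 higher and 5 lower in the RKIP-labelled hearts (median -0.29) and 0 higher and 3 lower in the GRK-Inh hearts (median -0.20). The part of these cells in the Aqp4 result was not tested. Over all genes tested, 10.8% passed against control in RKIP-labelled and 13.1% in GRK-Inh hearts. Heart muscle cell markers gave 0 higher and 1 lower of 8 in the RKIP-labelled hearts and 0 called by limma in the GRK-Inh hearts (2 at an unadjusted p under 0.05), with summed signals of 207667 to 221027 on all arrays.

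Aqp8, the water and hydrogen peroxide channel, was higher in both transgenic groups and highest in the RKIP-labelled hearts. Its single probe set gave 193 and 156 on the RKIP-labelled arrays, 99.0 and 94.0 on the GRK-Inh arrays, and 44.0 and 34.6 on the control arrays. No 2 groups overlapped. The control signals were below the filter level of 50.2, so the gene was tested because of its signal in the transgenic groups. The mean was 174.6 ± 26.0 (SD, n = 2) in RKIP-labelled, 96.5 ± 3.55 in GRK-Inh and 39.3 ± 6.62 in control hearts. No ratio of signals is given, since the control level is not shown to be above background. On the log2 scale of signal plus 50 the differences from control were 1.33 ± 0.17 (adjusted p = 0.000583 by limma) and 0.72 ± 0.17 (adjusted p = 0.0163). With offsets of 16 and 200 in place of 50 the first was 1.78 and 0.64 and the second 1.03 and 0.31, so their size depends on the offset.

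The alternatives for Aqp8 reuse these arrays and, apart from the setting with no filter, a filter that Aqp8 reached through its transgenic signal. Within them the Aqp8 rise in the RKIP-labelled hearts held in all 16. In the GRK-Inh hearts it was lost with no filter on dim genes (adjusted p = 0.0531), without GRK-Inh array 1 (0.0874), without GRK-Inh array 2 (0.0647) and without control array 2 (0.0876), with adjusted p from 0.0118 to 0.0876 over its alternatives. The difference between the transgenic groups was 0.61 ± 0.17 (95% interval 0.24 to 0.98, adjusted p = 0.0462). It was lost in 13 of 16 alternatives, with adjusted p from 0.0290 to 0.252 over them, and without RKIP-transgenic array 1, the higher of its group, it was 0.49. Genes of hydrogen peroxide handling had 3 of 13 higher and 0 lower in RKIP-labelled hearts (median 0.017) and 1 higher and 1 lower in GRK-Inh hearts (median -0.024). Between the transgenic groups 3 were higher and 0 lower in the RKIP-labelled hearts (median 0.083). The shares called over all genes tested were 10.8%, 13.1% and 8.84% in the same order of comparisons. Of 8 pancreas and liver genes with a probe set, organs in which Aqp8 is abundant, 1 was past the filter and limma called it in 0 comparisons (at an unadjusted p under 0.05 in those of the RKIP-labelled hearts). This gene, Ttr, gave 96.3 and 90.3 in RKIP-labelled, 36.7 and 48.6 in GRK-Inh and 57.6 and 56.8 in control hearts. RKIP-labelled minus control was 0.42 ± 0.18, and RKIP-labelled minus GRK-Inh 0.63 ± 0.18 (adjusted p = 0.171 and 0.0515 by limma). Alb, the albumin gene, and Cela1, Cela2a and Cpa1, pancreatic enzyme genes, were below the filter. The list's summed signal was 181 to 198 in RKIP-labelled, 107 to 135 in GRK-Inh and 164 to 192 in control hearts. The part of such tissue in the Aqp8 result was not tested.

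**Figure D2:**
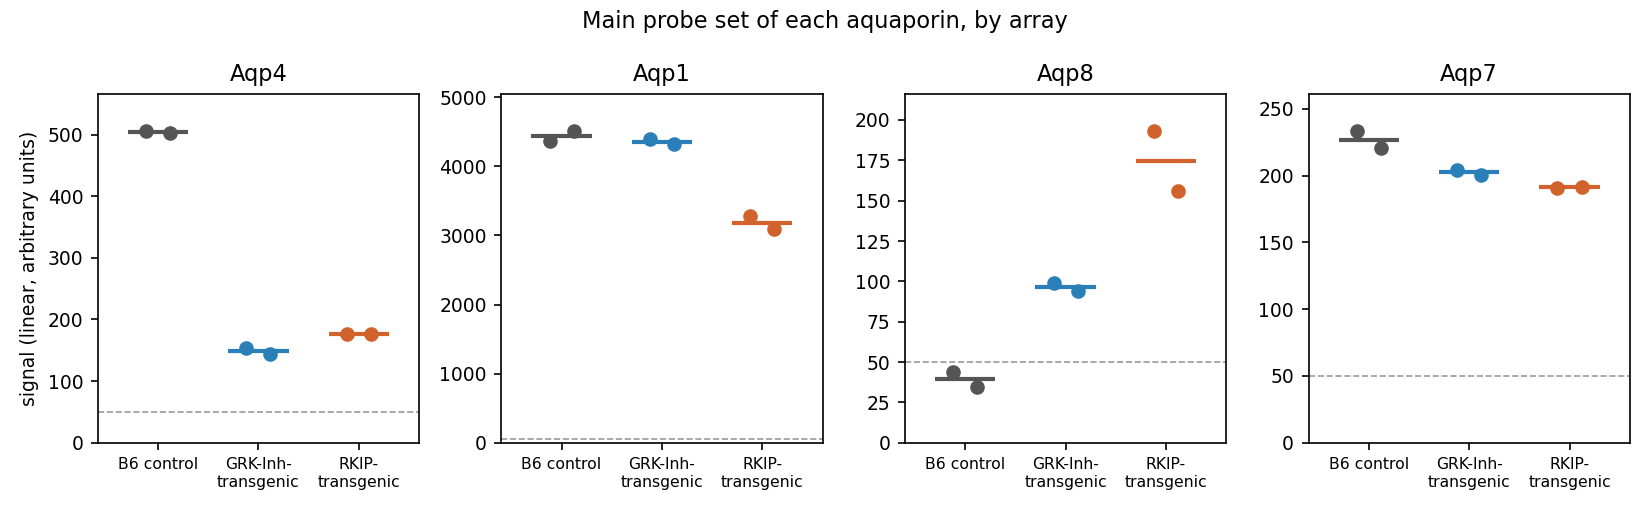
Signal of the main probe set of each aquaporin on each array (points, linear scale from 0, own scale per panel) with the mean of the 2 arrays of a group (bars); the dashed line is the filter signal of 50.2. Aqp4 is high only on the control arrays, Aqp1 is low only on the RKIP-transgenic arrays (3285 and 3090), Aqp8 rises from control over GRK-Inh to RKIP-transgenic, and Aqp7 spans 191 to 233.

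Aqp7, the glycerol channel, did not pass in any comparison. Its main probe set gave 191.0 and 191.7 on the RKIP-labelled arrays, 204 and 200.4 on the GRK-Inh arrays, and 233 and 220.3 on the control arrays. The groups stood in the order control, GRK-Inh, RKIP-labelled without overlap. Over all genes tested, RKIP-labelled and control arrays did not overlap for 53.4%, and GRK-Inh and control arrays for 56.9%. The share between the transgenic groups was 52.9%, so a lack of overlap in a single comparison does not set Aqp7 apart. Against control the log2 fold changes were -0.20 ± 0.12 in RKIP-labelled (95% interval -0.46 to 0.066, adjusted p = 0.343) and -0.13 ± 0.12 in GRK-Inh hearts (-0.40 to 0.13, adjusted p = 0.518). Between the transgenic groups it was -0.064 ± 0.12 (-0.33 to 0.20, adjusted p = 0.808). These intervals do not show that the groups were alike. The suffix of this probe set, x_at, marks probes that can also bind other transcripts. The second Aqp7 probe set was below the filter, with 16.9 and 48.5, 40.2 and 58.9, and 60.7 and 45.4 in RKIP-labelled, GRK-Inh and control hearts, and its groups overlapped.

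Fat cell genes and glycerol enzymes were read beside Aqp7. Of 4 tested white fat cell markers, 0 were higher and 3 lower in RKIP-labelled hearts (median -0.85), and 0 were higher and 1 lower in GRK-Inh hearts (median 0.029). The summed signal of the 6 markers with a probe set was 19479 to 20443, 23137 to 23226 and 25224 to 26512 in RKIP-labelled, GRK-Inh and control hearts. Most of it came from 1 gene, Fabp4, a fatty acid carrier that capillary endothelium also makes. Without Fabp4, left out after its values were seen, the sum was 1182 to 1239, 3615 to 4229 and 3660 to 3832, and the GRK-Inh and control arrays overlapped. Most of that sum again came from 1 gene, Car3. It gave 1019 and 1073 in RKIP-labelled, 3670 and 3209 in GRK-Inh and 3412 and 3211 in control hearts (RKIP-labelled against control -1.62 ± 0.070). Adipoq, the adiponectin gene, gave 88.8 and 80.8 in RKIP-labelled, 434 and 260 in GRK-Inh and 288 and 307 in control hearts (RKIP-labelled against control -1.37 ± 0.18, adjusted p = 0.000929). The part of fat cells in the Aqp7 values was not tested. Over all genes tested, 10.8% passed against control in RKIP-labelled and 13.1% in GRK-Inh hearts. Of brown fat cell markers 1 of 3 tested was higher in RKIP-labelled hearts and 0 were called by limma in GRK-Inh hearts, also at an unadjusted p under 0.05. Ucp1, the defining uncoupling protein gene, was below the filter, and the list's summed signal was 1756 to 1794, 1491 to 1530 and 1452 to 1474 in the same order of groups.

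Of the genes of glycerol and triglyceride handling, 2 of 15 were higher and 2 lower in RKIP-labelled hearts (median -0.091), and in GRK-Inh hearts 2 were higher and 1 lower (median -0.060). The shares called over all genes tested were 10.8% and 13.1%. Pnpla2, the lipase that starts triglyceride breakdown, rose in RKIP-labelled hearts from 1685 and 1748 to 2372 and 2438 (0.48 ± 0.056, adjusted p = 0.000375). Mgll, the lipase that releases the last fatty acid and free glycerol, fell there from 2338 and 2263 to 1672 and 1710 (-0.43 ± 0.053, adjusted p = 0.000492). It was higher in GRK-Inh than in control hearts (0.25 ± 0.053, adjusted p = 0.00915 by limma), a call lost in 3 of 17 alternatives. Between the transgenic groups the Mgll difference was -0.69 ± 0.053. Lpin1 was higher than control in both groups (0.25 ± 0.046 in RKIP-labelled and 0.45 ± 0.046 in GRK-Inh hearts). In the GRK-Inh hearts Agpat2, an enzyme of triglyceride synthesis, fell to 558 and 579 from 1012 and 970 (-0.75 ± 0.072, adjusted p = 6.9e-05). Fuel genes that respond to PPAR receptors, to which Aqp7 is also known to respond in fat, were counted as well. In RKIP-labelled hearts 3 of 12 were higher and 3 lower (median 0.059), and in GRK-Inh hearts 5 were higher and 2 lower (median 0.11). Between the transgenic groups 0 were higher and 3 lower in the RKIP-labelled hearts (median -0.17). The shares called over all genes tested were 10.8%, 13.1% and 8.84%, and the medians -0.017, -0.031 and 0.021. Angptl4 and Ucp3 fell in both groups (-1.30 ± 0.10 and -0.87 ± 0.10 for Angptl4, -1.29 ± 0.10 and -1.12 ± 0.10 for Ucp3). Ppargc1a was higher in GRK-Inh than in control hearts (0.65 ± 0.059). It was also higher in RKIP-labelled hearts (0.21 ± 0.059, adjusted p = 0.0426 by limma), a call lost in 8 of 17 alternatives, quantile normalization among them. Pdk4, which restrains glucose oxidation, fell in RKIP-labelled hearts (-0.89 ± 0.041) and rose in GRK-Inh hearts (0.35 ± 0.041).

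Of the 4 aquaporins, 1 was higher and 2 were lower in RKIP-labelled than in control hearts, where 10.8% of all genes tested were called, 5.32% as higher and 5.52% as lower. In GRK-Inh hearts 1 was higher and 1 lower, where 13.1% were called, 5.85% as higher and 7.25% as lower. Between the transgenic groups 1 was higher and 1 lower in the RKIP-labelled hearts, where 8.84% were called, 4.47% as higher and 4.37% as lower. The median log2 fold changes of the members were -0.33, -0.079 and 0.060, against -0.017, -0.031 and 0.021 over all genes tested. Groups did not overlap for 4, 3 and 4 members in these comparisons, against 53.4%, 56.9% and 52.9% of all genes tested. No conclusion is drawn from these shares, since the genes were picked with results known and Aqp8 reached the filter through the transgenic groups.

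**Figure D3:**
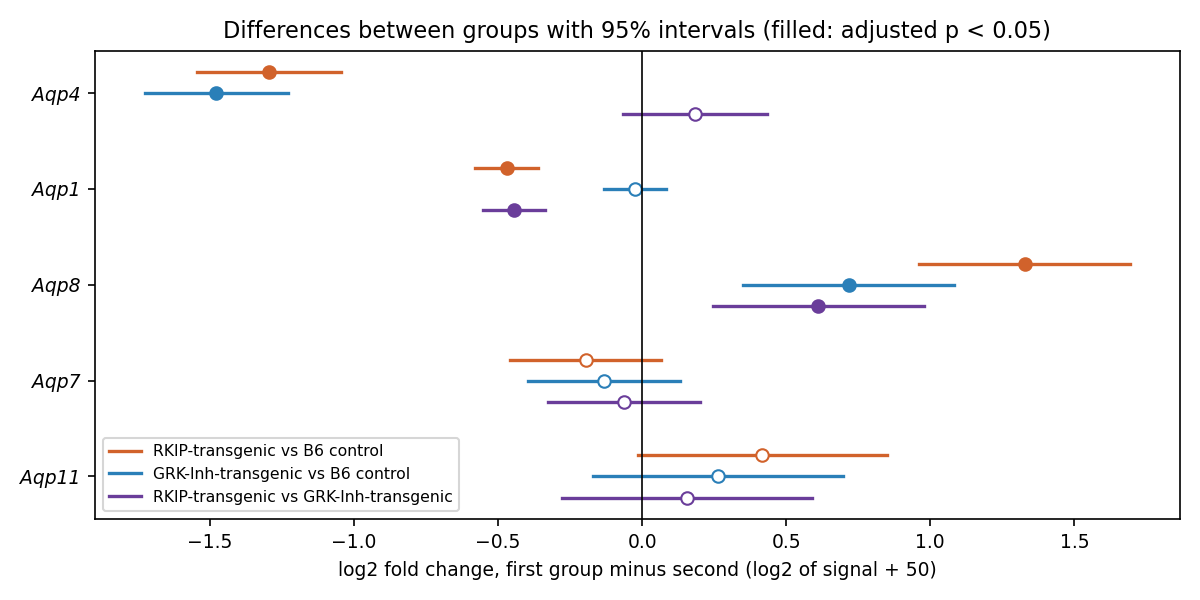
Log2 fold change (first group minus second, log2 of signal plus 50) with its 95% interval for the 5 aquaporin genes past the filter in 3 comparisons; filled points passed at an adjusted p under 0.05. Aqp4 is near -1.29 and -1.48 against control in both transgenic groups, Aqp1 is near -0.47 and -0.45 in the comparisons that hold the RKIP-transgenic group, and all intervals of Aqp7 and Aqp11 include 0.

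The other 8 aquaporin genes (Mip, Aqp2, Aqp3, Aqp5, Aqp6, Aqp9, Aqp11 and Aqp12) held 18 probe sets, of which 1, the main one of Aqp11, was past the filter. Aqp11, a channel of intracellular membranes, gave 117 and 83.5 in RKIP-labelled, 70.1 and 99.99 in GRK-Inh and 52.7 and 71.9 in control hearts. Its differences from control of 0.42 ± 0.20 and 0.26 ± 0.20 did not pass (adjusted p = 0.215 and 0.423). The main probe sets of the remaining 7 genes had signals of 0.736 to 59.0 with a median of 12.4. They include Aqp3 and Aqp9, the other glycerol channels, and Mip, the lens aquaporin.

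Genes of cell volume control were counted as the setting in which water channels work. In RKIP-labelled hearts 1 of 9 tested was higher and 1 lower (median -0.15), and in GRK-Inh hearts 3 were higher and 1 lower (median -0.13). The shares called over all genes tested were 10.8% and 13.1%. Sgk1, the serum- and glucocorticoid-regulated kinase gene, was higher in GRK-Inh hearts, at 3629 and 3727 against 1742 and 1894 in control hearts (1.00 ± 0.063, adjusted p = 3.2e-06). Slc5a3, which takes up the osmolyte myo-inositol, was also higher there, at 553 and 579 against 334 and 287 (0.78 ± 0.11, adjusted p = 0.000790). Both stood apart between the transgenic groups as well (RKIP-labelled minus GRK-Inh -1.16 ± 0.063 and -1.07 ± 0.11). The RKIP-labelled arrays gave 1557 and 1692 for Sgk1 and 236 and 253 for Slc5a3.

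The genes whose pattern over the 6 arrays lay nearest to each aquaporin were found by the Euclidean distance between log2 values taken relative to each gene's control mean. For Aqp4 these were Igf2, Frem2 and Ucp3, at distances of 0.38, 0.52 and 0.54, where Aqp4 itself was 2.78 from a flat pattern. Igf2, a growth factor gene, gave 347 and 320 in RKIP-labelled, 291 and 327 in GRK-Inh and 780 and 869 in control hearts. For Aqp8 they were Bdh1, Acta1 and Acsl6, at 0.14, 0.30 and 0.36, with Aqp8 at 2.14 from flat. Bdh1, a ketone body enzyme gene, gave 1719 and 1626, 1048 and 1022, and 638 and 581 in the same order of groups. Acta1 encodes skeletal actin and Acsl6 a fatty acid activating enzyme. For Aqp1 the nearest were Egln3, an oxygen-dependent prolyl hydroxylase gene, Igsf1 and Cd44, the hyaluronan receptor gene, at 0.11, 0.12 and 0.13, with Aqp1 at 0.67 from flat. Ppp6c, Josd2 and Ctsc lay 0.043 to 0.053 from Aqp7, which itself was 0.34 from flat. These distances describe 6 arrays that share 2 controls, carry no test, and say nothing of shared control.

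**Figure D4:**
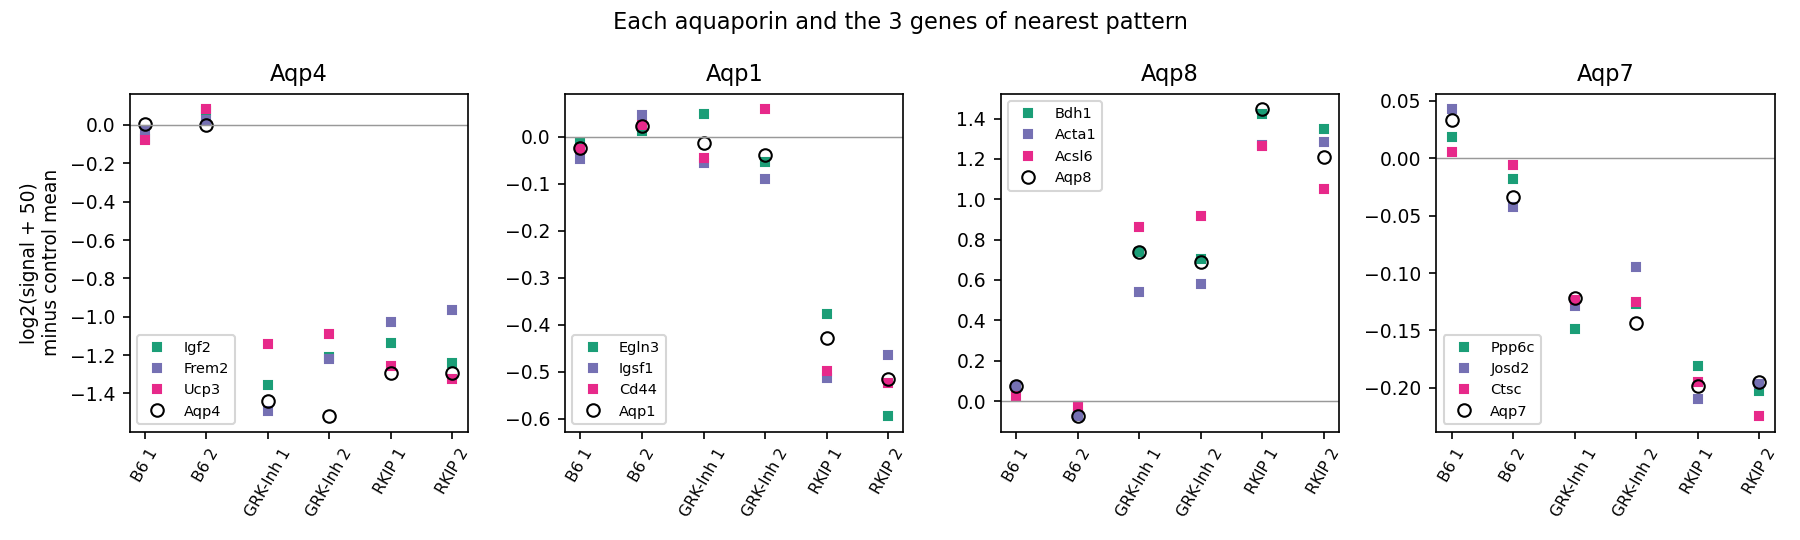
Log2 of signal plus 50 minus the control mean on each of the 6 arrays for each aquaporin (open circles) and the 3 genes of nearest pattern (squares); the numbers after the group names are the replicates, and each panel has its own vertical scale. Igf2, Frem2 and Ucp3 are low on all 4 transgenic arrays with Aqp4, and Bdh1, Acta1 and Acsl6 step up from GRK-Inh to RKIP-transgenic arrays with Aqp8.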

How the data were processed

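Biotin-labelled cRNA from total heart RNA was hybridised to Affymetrix mouse arrays, per the labels' protocols. The authors deposited a linear intensity for each probe set, made with GCOS per the submitters' processing notes; its version is not given in the sources used here. Every array had a 2% trimmed mean of 300.002. The table held 45101 probe sets, of which 64 were controls. Genes were named from the array annotation, which gave 34945 probe sets 1 symbol, 932 several and 9160 none, and 34754 of its 35890 entries matched a RefSeq gene. No genome build is given for the array table, so only the printed upstream sequences have coordinates.

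Log2 values (offset 50) of the brightest probe set per gene were fitted in 1 model over 6 arrays with limma 3.58.1 in R 4.3.3, two-sided, with a variance trend, 3 residual and 7.63 prior degrees of freedom. The number of arrays limits precision, and the median SE was 0.115. The fit was also run on simulated data whose spreads were shuffled among genes, so that run does not test the variance trend. Alternatives changed the normalization, offset, filter, probe sets, variance, arrays in the fit and replicate block, and left out each array in turn.

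The members and gene lists were chosen with earlier results of these data known. By rule, the text names the aquaporin family, Pebp1, up to 4 called genes per list and the 3 nearest genes per member. Outside that rule, defining markers below the filter are named to show that they were dim, chosen after their values were seen. Of the list genes, mainly those whose call held under all alternatives are printed, a choice made after their values were seen. List members without a single-symbol probe set were not analysed here. Figures were drawn with matplotlib 3.10.9.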

Additional observations from a re-analysis of the deposited data

How the results depend on the processing

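The passing differences of Aqp4 and Aqp1, and of Aqp8 between RKIP-labelled and control hearts, kept direction and call in every alternative run, and Aqp7 passed in none. Aqp4, Aqp7 and Aqp8 gave no value with the filter at the 75th percentile. For GRK-Inh against control hearts, Aqp1 turned sign to 0.020 with the arrays shifted to one median, and Aqp8 (0.72) lost its call with no filter, and ranged from 0.64 to 0.79 with an array left out. For RKIP-labelled against GRK-Inh hearts, Aqp8 lost its call with quantile normalization (0.58), the arrays shifted to one median (0.57), an offset of 16 (0.75), and at 0.61 with no filter, all probe sets, a variance without trend or the replicate block, and ranged from 0.49 to 0.73 with an array left out. Genes called were 1220, 1474 and 995 in the 3 comparisons, and 293, 726 and 251 with a variance without trend. All probe sets gave 2324 calls for GRK-Inh against control, where 22519 features were tested, and no filter gave 619 between the transgenic groups. With an array left out, which leaves fewer degrees of freedom and takes the lone array to vary like the other groups, the counts ranged from 624 to 1137, from 904 to 1484 and from 476 to 876. The cause of the other changes was not tested. Replicate numbers did not pair the samples: the correlations of replicate 1 minus replicate 2 between groups were 0.026, -0.030 and -0.035 over 11254 genes. The replicate block gave 1153, 1436 and 907 calls and adjusted p = 0.0538 for Aqp8 between the transgenic groups by limma. Of 103 calls of the named genes outside the family, 51 held in every alternative, 49 were lost with a variance without trend, 35 without some array, and 0 reversed. Dim signals limit Aqp8 in control hearts and the smaller Aqp4 and Aqp7 probe sets.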

Other observations

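The signals of Aqp2, the vasopressin-regulated channel of the kidney, split by replicate number and not by group. Its probe set, which was below the filter and was singled out after its values were seen, gave 54.7, 59.0 and 44.1 on replicate 1 of the RKIP-labelled, GRK-Inh and control groups, and 12.2, 13.2 and 11.3 on replicate 2. Replicate 1 was the higher array in 3 of 3 groups. No test was made of this split, and the share of all probe sets with such a split was not counted, so it does not show a replicate effect.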
